A study of Homo sapiens with 15 samples.

Results

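The genes described here are the matrix metalloproteases (MMP), the ADAM and ADAMTS proteases, the related ADAMTSL proteins and the TIMP inhibitors in RNA sequencing of WI-38 cells, a human fetal lung fibroblast line with a limited number of divisions. Members were taken by symbol alone from 4 deposited tables, as every gene whose name starts with MMP, ADAM or TIMP and a digit, or with ADAMTS. Of the 4872 genes in the tables, 24 are members: 9 MMP, 5 ADAM, 7 ADAMTS, 2 ADAMTSL genes and 1 TIMP gene. All 24 are protein-coding genes in RefSeq, which holds 73 protein-coding genes with such names. A gene had to change by 1.5-fold with an adjusted p under 0.05 to enter a table, so the other genes of these families, TIMP1 to TIMP3 among them, have no values here and are not shown to be unchanged.

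The 15 libraries form 5 groups of 3. Cells at 45 generations (PD45) carried siSRC2 or siSRC4, read from the sample titles as 2 siRNAs to the tyrosine kinase gene SRC, with DMSO and the lipofection reagent lipo3000. Other PD45 cells received the kinase inhibitor GW8510 with lipo3000 and an agent labelled NC. Cells at 30 generations (PD30) received DMSO and lipo3000 without NC, and the PD45 control received DMSO, lipo3000 and NC. GW8510 and the absence of DMSO cannot be told apart in these labels, nor can passage and NC for PD30. No dose or duration is labelled for GW8510. Whether a group's 3 libraries represent separate cultures is not labelled either, and the p-values therefore reflect variation among libraries that may be technical.

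Matrix metalloproteases cut collagens, other matrix proteins and signalling proteins, and the membrane-type members work at the cell surface. ADAM proteases release the outer parts of membrane proteins such as growth factors and Notch receptors, ADAMTS proteases process proteoglycans, procollagens and microfibrils, ADAMTSL proteins share the ADAMTS ancillary domains but have no protease domain, and TIMP proteins inhibit the metalloproteases. Senescent fibroblasts are known for secreting collagenases and other proteases of these families.

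The promoters of the 5 members with values for both siRNAs are shown first, because these are the genes in which the siRNAs can be compared. Each sequence is the 250 bases before the start site in RefSeq (GRCh38.p14), 5′ to 3′ on the gene's strand, at chr5:129460048-129460297 on the plus strand for ADAMTS19, chr9:18473903-18474152 on the plus strand for ADAMTSL1, chr14:22836335-22836584 on the plus strand for MMP14, chr5:157575776-157576025 on the minus strand for ADAM19 and chr20:35226440-35226689 on the plus strand for MMP24. Capitals mark matches to the GC box letters GGGCGG on either strand.
ADAMTS19: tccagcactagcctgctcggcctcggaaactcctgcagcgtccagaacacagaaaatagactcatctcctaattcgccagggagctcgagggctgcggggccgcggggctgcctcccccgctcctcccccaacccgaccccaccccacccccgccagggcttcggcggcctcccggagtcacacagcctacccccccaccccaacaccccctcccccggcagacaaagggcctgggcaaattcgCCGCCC
ADAMTSL1: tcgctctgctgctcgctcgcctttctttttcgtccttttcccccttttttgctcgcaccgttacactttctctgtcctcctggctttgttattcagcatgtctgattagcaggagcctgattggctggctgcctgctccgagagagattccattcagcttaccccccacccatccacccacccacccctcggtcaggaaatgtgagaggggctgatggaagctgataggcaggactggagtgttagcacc
MMP14: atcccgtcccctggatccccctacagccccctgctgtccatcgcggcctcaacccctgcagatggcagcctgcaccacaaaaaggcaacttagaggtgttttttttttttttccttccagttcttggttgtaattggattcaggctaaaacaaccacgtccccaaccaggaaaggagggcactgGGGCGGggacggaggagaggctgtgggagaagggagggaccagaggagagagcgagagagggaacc
ADAM19: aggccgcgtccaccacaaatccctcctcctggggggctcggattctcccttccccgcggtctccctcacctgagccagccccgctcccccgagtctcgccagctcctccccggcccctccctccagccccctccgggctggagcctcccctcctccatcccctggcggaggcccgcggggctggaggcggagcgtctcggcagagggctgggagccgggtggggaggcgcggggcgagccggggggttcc
MMP24: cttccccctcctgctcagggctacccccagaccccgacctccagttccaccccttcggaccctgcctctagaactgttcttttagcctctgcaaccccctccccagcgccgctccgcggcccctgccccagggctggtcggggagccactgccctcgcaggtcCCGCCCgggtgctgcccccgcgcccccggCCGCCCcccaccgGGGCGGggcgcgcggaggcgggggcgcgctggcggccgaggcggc
ADAMTS19 and ADAMTSL1 lay on opposite sides of the control with the siRNAs, and MMP14, ADAM19 and MMP24 rose with both. The windows of ADAMTSL1 and ADAM19 hold no GC box, and that of ADAMTS19 holds a match at position -6 from the start site. RefSeq windows were matched for 16 of the 24 members, and 14 of the 16 hold GGGCGG, against 53.74% of 22199 windows of protein-coding genes. The AP-1 letters TGANTCA were found for 1 of the 16 (ADAMTS12), against 5.36% of those windows, and the TATA letters TATAAA for 1 (ADAMTS10, in 1 of its 2 windows), against 9.0%. All motifs were read on both strands, and matches that overlap each other were each counted. These are matches of letters only. No window was matched for MMP1, MMP17, MMP19, MMP28, ADAM33, ADAMTS8, ADAMTS9 or ADAMTS15, so the motifs were not looked for in those genes.

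**Figure D1:**
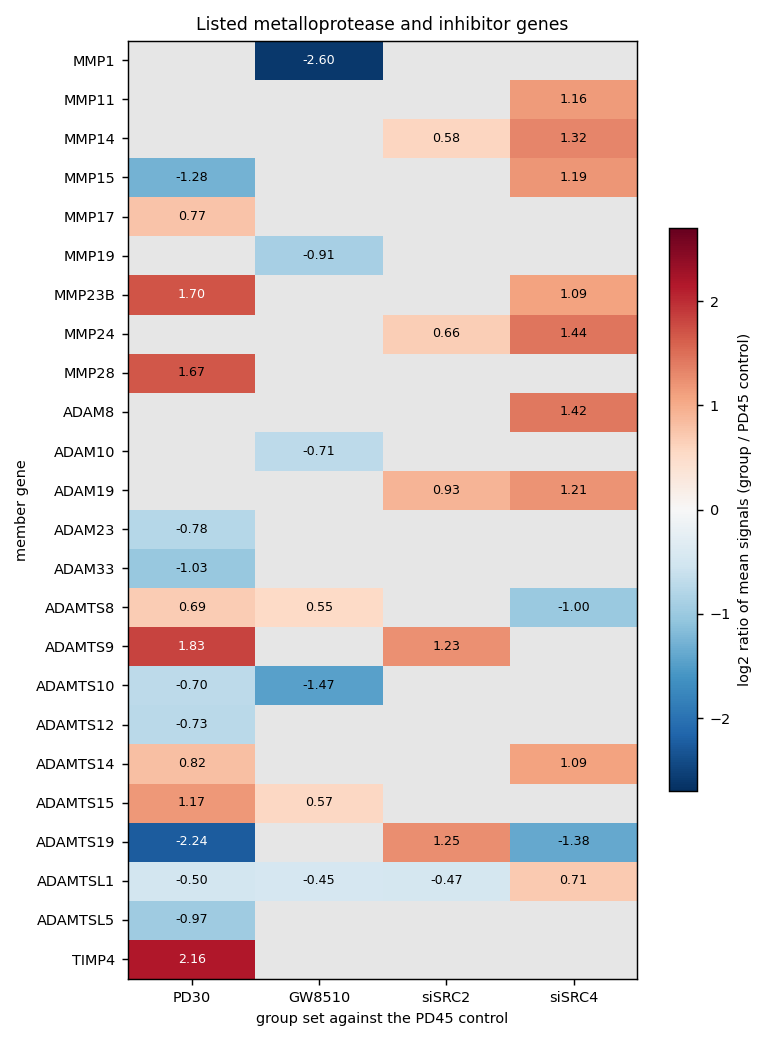
Log2 ratio of mean deposited signals, group over PD45 control, for the 24 member genes (rows, by family) in the PD30, GW8510, siSRC2 and siSRC4 tables (columns), with grey where a gene is not in a table. ADAMTS19 is positive with siSRC2 and negative with siSRC4, ADAMTSL1 is negative with siSRC2 and positive with siSRC4, and MMP1 with GW8510 has the lowest value (-2.60).

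Values are the deposited signal, a normalized expression value whose unit the headers do not give, so levels are compared between groups for a gene and not between genes. Read depth per library is unknown. SRC, the knockdown target, had signals of 11.6, 10.6 and 11.61 with siSRC2 and 9.51, 11.11 and 11.77 with siSRC4, against 18.95, 20.47 and 19.88 in the PD45 control. Both siRNA groups lay below every control library, at 57.0% and 54.6% of the control mean. Of 8 fibroblast markers, VIM and PDGFRA were in a table, both higher at PD30. KRT8 and KRT18 among 5 epithelial markers, and ACTA2 and CNN1 among 4 smooth muscle markers, were lower at PD30, no endothelial marker was in a table, and CD68 among 4 leukocyte markers was lower with GW8510. In these bulk libraries fewer cells of a type and less RNA per cell cannot be told apart.

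Knockdown of SRC with siSRC2 or siSRC4 asks how less of the kinase changes PD45 cells. With siSRC4 the surface collagenase MMP14, MMP15, MMP24, MMP11 and the sheddase ADAM19 rose by 2.2-fold to 2.7-fold in mean signal, and with siSRC2 MMP14, MMP24 and ADAM19 rose by 1.5-fold to 1.90-fold. ADAMTS19 rose with siSRC2 and fell with siSRC4, and ADAMTSL1 fell with siSRC2 and rose with siSRC4. No TIMP gene was in either table.

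The authors' deposited table for siSRC2 lists 6 members, 5 higher and 1 lower, where it lists 2.64% of an estimated 12549 tested genes, 1.38% as higher and 1.26% as lower. The authors' deposited table for siSRC4 lists 11 members, 9 higher and 2 lower, where it lists 8.77% of an estimated 14598 genes, 3.91% as higher and 4.86% as lower. How many of the 73 family genes the authors tested is not known, so no share of the family is set against those percentages. The median log2 ratio of mean signals was 0.80 over the 6 siSRC2 members and 0.44 over all 331 genes of that table. It was 1.16 over the 11 siSRC4 members and -0.54 over all 1280 genes of that table. In a table cut at 1.5-fold these signed medians mostly reflect which direction holds more genes. The median absolute log2 ratio was 0.80 over the siSRC2 members and 0.74 over that table, and 1.19 and 0.76 for siSRC4. The groups did not overlap for any of the 6 or the 11 members, as for 90.6% and 88.8% of all genes in these tables. The listed genes were re-tested with limma on log2(signal + 1). All 6 siSRC2 members passed at an adjusted p under 0.05, 5 higher and 1 lower, as did 95.5% of 310 listed genes, 47.7% higher and 47.7% lower. The 9 siSRC4 members with enough signal passed, 7 higher and 2 lower, as did 93.7% of 1170 listed genes, 40.3% higher and 53.4% lower.

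ADAMTS19, an ADAMTS protease with little known of its substrates, had signals of 23.09, 17.24 and 24.95 with siSRC2, and 2.56, 4.15 and 3.87 with siSRC4, against 8.10, 8.41 and 11 in the PD45 control. The 3 groups did not overlap: every siSRC2 library lay above every control library and every siSRC4 library below. The mean was 2.37-fold higher with siSRC2 (21.8 ± 4.02 against 9.17 ± 1.59, SD, n = 3 each) and 2.60-fold lower with siSRC4 (3.53 ± 0.849). The log2(signal + 1) difference was 1.16 ± 0.16 (SE) with siSRC2 and -1.18 ± 0.18 with siSRC4, with limma adjusted p-values of 0.000207 and 0.000746. In the authors' deposited table the log2 fold change was 1.23 for siSRC2 and -1.14 for siSRC4.

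ADAMTSL1, known as punctin, is a matrix protein without a protease domain. It had signals of 4.62, 4.17 and 4.30 with siSRC2 and 8.64, 9.33 and 11.74 with siSRC4, against 6.54, 6.33 and 5.27 in the PD45 control. Here siSRC2 lay below and siSRC4 above the whole control range. The mean was 1.39-fold lower with siSRC2 and 1.64-fold higher with siSRC4, with limma adjusted p-values of 0.0129 and 0.00463. Without PD45 control replicate 2 the siSRC2 call was lost at an adjusted p of 0.0508, where the 12 alternatives ran from 0.00634 to 0.0508. In the authors' deposited table the log2 fold change was -0.63 for siSRC2 and 0.68 for siSRC4.

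MMP14, the membrane-bound collagenase that also activates proMMP2, had signals of 558.44, 509.43 and 421.53 with siSRC2 and 859.59, 882.43 and 729.09 with siSRC4, against 363.34, 342.84 and 286.41 in the PD45 control. All siSRC4 libraries lay above all siSRC2 libraries, which lay above the control, and the third library was the lowest in each group. The means were 1.5-fold and 2.49-fold the control mean, with limma adjusted p-values of 0.00143 and 0.000195. MMP24, another membrane-type protease, stood at 1.40, 1.95 and 1.59 with siSRC2 and 2.52, 3.23 and 2.72 with siSRC4, against 0.97, 1.12 and 1.03 in the control. Its groups were ordered as for MMP14 without overlap, at 1.58-fold and 2.71-fold of the control (limma, adjusted p = 0.0125 and 0.000496). Without siSRC2 replicate 2 the siSRC2 call for MMP24 was lost (adjusted p = 0.0586, the highest of 11 alternatives from 0.0102). ADAM19, a sheddase known to cut neuregulins, had signals of 40.65, 41.20 and 28.95 with siSRC2 and 45.14, 47.00 and 42.11 with siSRC4, against 22.53, 18.62 and 17.08 in the control. Both siRNA groups lay above the control, at 1.90-fold and 2.31-fold (limma, adjusted p = 0.000567 and 0.000233).

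The difference between the siRNAs was tested for the genes present in both tables, 104 in all, of which 100 had enough signal. These genes had been listed against the same PD45 control libraries, so they are a selected set. ADAMTS19 and ADAMTSL1 had been listed in opposite directions, which set the siRNAs apart for them before this test. In the limma fit of siSRC2 against siSRC4, 27.0% of the 100 genes passed, 15.0% as higher with siSRC2 and 12.0% as lower. Of the 5 members, 1 passed as higher with siSRC2 and 3 as lower. ADAMTS19 was 6.17-fold higher with siSRC2 than with siSRC4, a log2(signal + 1) difference of 2.33 (95% interval 1.88 to 2.78, adjusted p = 4.63e-05), and its difference was the largest in size of the 100. ADAMTSL1 was 2.27-fold lower with siSRC2 than with siSRC4, a difference of -1.01 (-1.34 to -0.69, limma adjusted p = 0.000843). MMP14 was 1.66-fold lower with siSRC2, a difference of -0.73 (-1.04 to -0.42, limma adjusted p = 0.00400). MMP24 was 1.72-fold lower with siSRC2, a difference of -0.53 (-0.85 to -0.22, limma adjusted p = 0.0208). Its call was lost in 3 of 11 alternatives, at adjusted p-values of 0.0892 without siSRC2 replicate 1, 0.0790 without siSRC4 replicate 2 and 0.0656 without siSRC2 replicate 3, over a range from 0.00730. ADAM19 did not pass, with a difference of -0.29 and a 95% interval of -0.62 to 0.05 (limma adjusted p = 0.224), although its siRNA libraries did not overlap. For 3 libraries against 3 the smallest two-sided exact permutation p is 0.1.

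**Figure D2:**
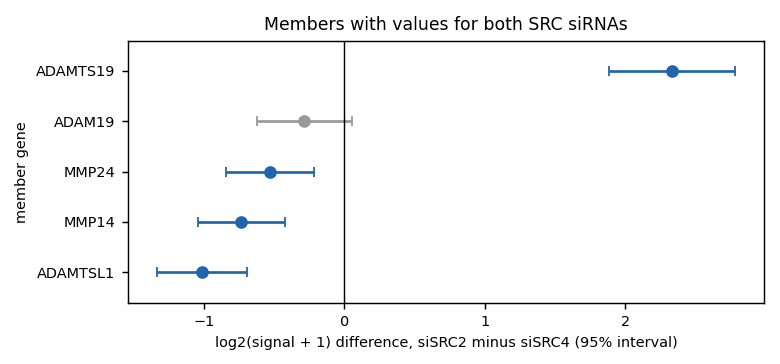
Difference in log2(signal + 1), siSRC2 minus siSRC4, for the 5 members with values for both siRNAs; points are limma estimates and bars their 95% intervals (3 libraries each), blue where the adjusted p is under 0.05 and grey where it is not. ADAMTS19 stands at 2.33, ADAMTSL1, MMP14 and MMP24 between -1.01 and -0.53, and the interval of ADAM19 holds 0.

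The remaining 7 of the 12 members in an siRNA table have values for 1 siRNA only, and a difference between the siRNAs was not tested for them. ADAMTS9, a proteoglycan-cleaving protease, was listed for siSRC2 at 1.49, 1.33 and 1.89, against 0.67, 0.76 and 0.58 in the PD45 control, a 2.34-fold rise without overlap (limma, adjusted p = 0.000950). MMP15, a membrane-type protease, was listed for siSRC4 at 9.69, 8.82 and 7.69, against 4.20, 3.92 and 3.35 (2.28-fold, limma adjusted p = 0.000507). All its siSRC4 libraries lay well above the control. MMP11, the secreted stromelysin-3, stood at 9.91, 9.15 and 6.01 with siSRC4 and at 3.96, 3.45 and 3.84 in the control (2.23-fold, limma adjusted p = 0.00153). MMP23B, a membrane-anchored protease, stood at 7.15, 7.71 and 13.51 with siSRC4 and at 4.14, 3.89 and 5.33 in the control (2.12-fold, limma adjusted p = 0.00524). The third siSRC4 library was high for MMP23B and low for MMP11. The MMP23B level is uncertain because MMP23A is a near-identical copy.

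ADAMTS8, a protease that can cut aggrecan, was with ADAMTS19 the other member that fell with siSRC4. Its signals were 9.06, 11.97 and 14.58 with siSRC4, against 19.96, 25.25 and 26.15 in the PD45 control, a 2.0-fold lower mean without overlap (limma, adjusted p = 0.00140). ADAMTS14, a procollagen N-propeptidase, and ADAM8, a sheddase known from leukocytes, lay under the signal minimum of the re-test. ADAMTS14 stood at 1.43, 1.27 and 1.17 with siSRC4 and at 0.67, 0.71 and 0.44 in the control, and ADAM8 at 1.10, 1.34 and 0.69 with siSRC4 and at 0.67, 0.27 and 0.23 in the control. Neither gene's groups overlapped, but the lowest siSRC4 value of ADAM8 was close to its highest control value. The authors' deposited table gives adjusted p-values of 0.000427 for ADAMTS14 and 0.0273 for ADAM8.

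Listed genes that were higher and lower differed mainly in base composition for siSRC4 and in transcript length for siSRC2. For siSRC4 the median GC content of the longest transcript was 55.4% for all listed genes that were higher and 41.0% for those lower. The 9 members higher with siSRC4 lay between 53.7% for ADAM19 and 71.3% for MMP23B, ADAMTS19 had 46.2% and ADAMTS8 62.5%. For siSRC2 the median length was 5223 bases for higher and 2698 bases for lower genes. ADAMTS19, higher with siSRC2, has 5234 bases, and ADAMTSL1, lower with siSRC2, has 8030. Median lengths for siSRC4 were 3760 bases for higher and 4022 for lower genes, and median GC contents for siSRC2 were 47.5% and 51.3%. The part of composition and length in the members' differences was not tested. Exons of ADAMTS19, MMP24, MMP11, MMP23B, ADAM19 and ADAMTS9 overlap a gene on the opposite strand (ADAMTS19-AS1, MMP24OS, CHCHD10, CDK11B, CYFIP2 and ADAMTS9-AS1 among them). Without a stated strand setting, reads from the overlapping bases of each pair cannot be told apart. How much of each gene overlaps was not measured.

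**Figure D3:**
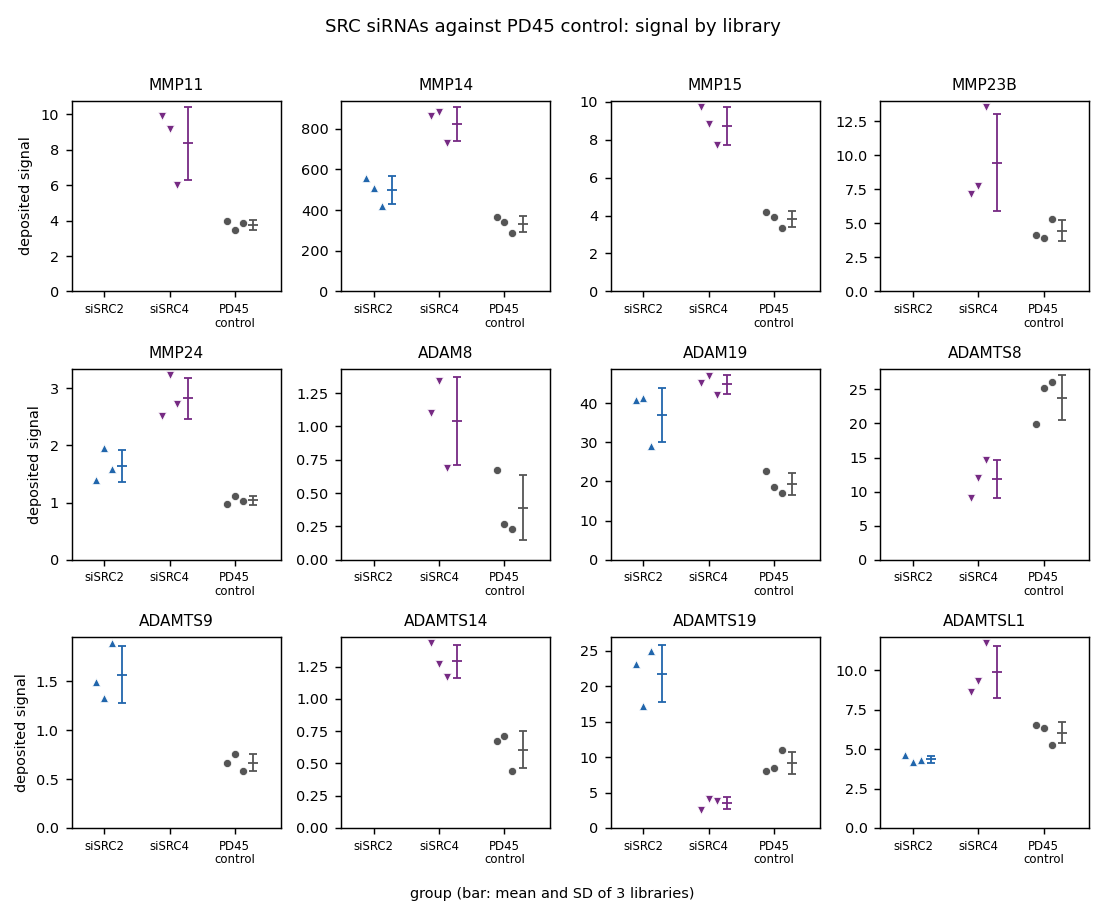
Deposited signal of the 12 members in an siRNA table, in each siSRC2, siSRC4 and PD45 control library (points, in replicate order) with mean and SD beside them (n = 3); a missing group has no values in the tables. For ADAMTS19 the siSRC2 libraries (17.24 to 24.95) lie above and the siSRC4 libraries (2.56 to 4.15) below the control, and for ADAMTSL1 the positions are reversed.

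GW8510 was set against the PD45 control to see the effect of inhibitor treatment on cells labelled as senescent. MMP1, the interstitial collagenase, fell to 16.5% of the control mean, and the protease gene MMP19 and the sheddase gene ADAM10 to 53.4% and 61.0%. ADAMTS10 also fell, while ADAMTS15 and ADAMTS8 had higher and ADAMTSL1 lower mean signals with calls that were lost under several alternatives. The authors' deposited table lists 7 members, 2 higher and 5 lower, where it lists 11.8% of an estimated 15574 genes, 4.59% as higher and 7.26% as lower. The median log2 ratio was -0.71 over the 7 members and -0.72 over all 1845 genes of the table, and the median absolute log2 ratio 0.71 and 0.82. The groups did not overlap for any of the 7, as for 90.6% of the table, and all 7 passed the limma re-test, 2 higher and 5 lower, as did 95.4% of 1625 genes, 37.9% higher and 57.5% lower.

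MMP1 had signals of 4.88, 3.54 and 3.33 with GW8510, against 32.82, 21.58 and 16.98 in the PD45 control. The treated libraries were close together and far below a control that itself varied widely, with the first control library the highest. The mean was 6.07-fold lower, a log2(signal + 1) difference of -2.30 ± 0.22 (SE, limma adjusted p = 2.70e-05), which ranks sixth in size among the 1625 genes fitted. MMP19 stood at 9.13, 9.96 and 10.25 with GW8510 and at 20.63, 17.30 and 17.06 in the control, 1.87-fold lower (limma, adjusted p = 0.000180). ADAM10, the sheddase of Notch receptors and many other surface proteins, stood at 81.17, 82.09 and 85.81 with GW8510 and at 136.66, 136.42 and 135.36 in the control. Its spread within groups was small and the mean 1.64-fold lower (limma, adjusted p = 7.77e-05). ADAMTS10, a protease linked to fibrillin microfibrils, stood at 1.01, 1.01 and 0.96 with GW8510 and at 3.40, 2.93 and 1.95 in the control, 2.78-fold lower (limma, adjusted p = 0.000606). The authors' deposited table gives ADAMTS10 a 2.03-fold lower level.

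Calls for the other 3 members were less firm. ADAMTS8 had signals of 27.00, 29.33 and 47.82 with GW8510, against 19.96, 25.25 and 26.15 in the PD45 control, and its high mean rested on the third treated library. The log2(signal + 1) difference was 0.49 ± 0.19 (SE, limma adjusted p = 0.0312), and without GW8510 replicate 3 it was 0.24 (adjusted p = 0.109). Without PD45 control replicate 1 it was 0.38 (adjusted p = 0.117), where the 12 alternatives ran from 0.00739 to 0.117. ADAMTS15, a proteoglycan-cleaving protease, stood at 2.72, 3.38 and 3.34 with GW8510 and at 1.98, 2.65 and 1.74 in the control, so that the lowest treated value was just above the highest control value. Its adjusted p of 0.0224 (limma) became 0.0611 to 0.0687 without PD45 control replicate 1, PD45 control replicate 3, GW8510 replicate 2 or GW8510 replicate 3, in a range from 0.00954 over 11 alternatives. ADAMTSL1 stood at 4.90, 4.27 and 4.08 with GW8510 and at 6.54, 6.33 and 5.27 in the control. Its adjusted p of 0.0213 (limma) became 0.0549 to 0.0717 without PD45 control replicate 1 or 2, or without GW8510 replicate 2 or 3, and 0.0706 on the authors' scale, in a range from 0.0102 over 12 alternatives. The ratio of its mean signals was 1.37-fold lower, while the authors' deposited table gives a 1.73-fold lower level. Without PD45 control replicate 1, or without GW8510 replicate 3, 4 of the 7 members passed. The share of all listed genes passing in those fits is not given, so the drop is not shown to be particular to members.

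Listed genes differed in composition here too, with a median transcript GC content of 55.1% for genes higher and 41.6% for genes lower with GW8510. ADAMTS15 and ADAMTS8, both higher, had 59.8% and 62.5%. Among the lower members MMP1 had 43.4%, ADAM10 38.3%, MMP19 51.5%, ADAMTSL1 54.7% and ADAMTS10 64.9%. The part of composition in these differences was not tested. MMP1, MMP19 and ADAM10 overlap in their exons a gene on the opposite strand (WTAPP1, TMEM198B and AC018904.1).

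**Figure D4:**
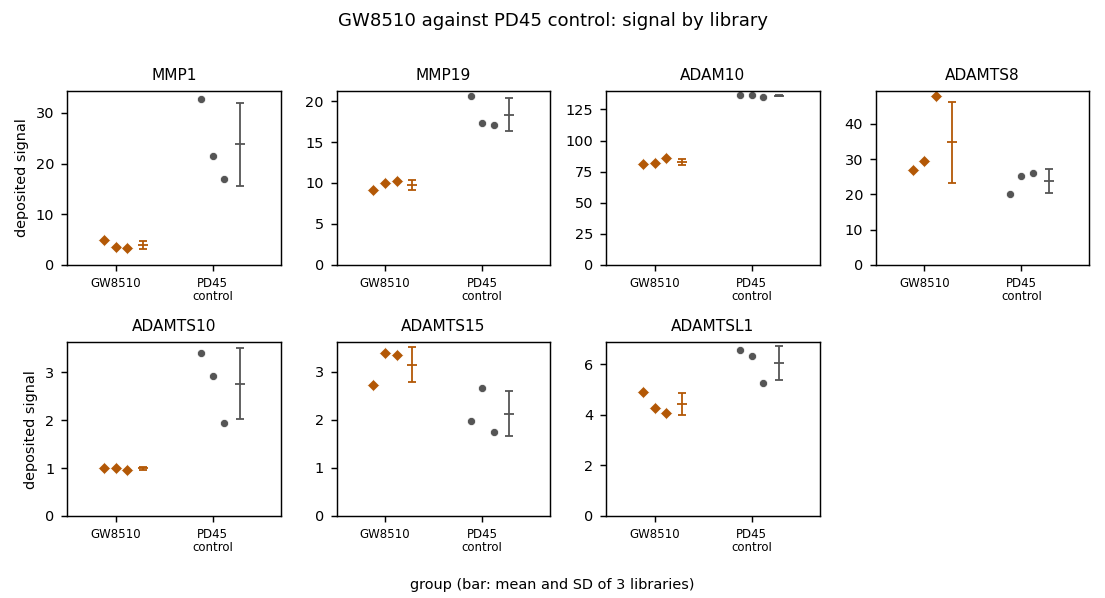
Deposited signal of the 7 members listed for GW8510, in each GW8510 and PD45 control library (points, in replicate order) with mean and SD beside them (n = 3). MMP1 lies between 3.33 and 4.88 with GW8510 and between 16.98 and 32.82 in the control, and 1 GW8510 library of ADAMTS8 (47.82) stands above the other two.

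PD30 was set against the PD45 control to show the change with culture age. PD30 libraries had more transcript of the inhibitor TIMP4, of MMP23B and MMP17 and of the proteoglycan-cleaving ADAMTS9, ADAMTS15 and ADAMTS8. They had less of ADAMTS19, MMP15, ADAM33, ADAM23, ADAMTS12 and ADAMTSL5, with smaller falls of ADAMTS10 and ADAMTSL1. The authors' deposited table lists 16 members, 8 higher and 8 lower, where it lists 15.3% of an estimated 18575 genes, 8.24% as higher and 7.07% as lower. The median log2 ratio was 0.09 over the 16 members and 0.59 over all 2845 genes of the table, and the median absolute log2 ratio 1.0 and 1.05. The groups did not overlap for any of the 16, as for 93.6% of the table. The 14 members with enough signal all passed the limma re-test, 6 higher and 8 lower, where 97.3% of 2258 genes passed, 52.0% as higher and 45.3% as lower.

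TIMP4, a secreted inhibitor of metalloproteases, had signals of 4.32, 4.93 and 4.86 at PD30, against 1.20, 1.19 and 0.77 in the PD45 control. That 4.47-fold higher mean was the largest ratio of a member that was higher at PD30 (limma, adjusted p = 7.93e-06). TIMP4 exons overlap SYN2 on the opposite strand, as those of ADAMTSL5 do AC027307.1. Among the MMP genes, MMP23B stood at 11.13, 15.18 and 17.14 at PD30 and at 4.14, 3.89 and 5.33 in the control, 3.25-fold higher (limma, adjusted p = 2.75e-05). The authors' deposited table gives MMP23B a 4.53-fold higher level. MMP17, a membrane-type protease held by a lipid anchor, averaged 9.31 ± 0.985 at PD30 and 5.46 ± 0.225 in the control (SD, n = 3 each; limma, adjusted p = 0.000405). The direction of MMP15 was the opposite, with 1.52, 1.64 and 1.55 at PD30, against 4.20, 3.92 and 3.35 in the control, 2.44-fold lower (limma, adjusted p = 9.24e-05). MMP28, known as epilysin, was below the signal minimum, with 0.76, 0.92 and 0.48 at PD30, against 0.10, 0.23 and 0.35 in the control. The authors' deposited table gives MMP28 an adjusted p of 0.04997, at the edge of its limit.

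Both listed ADAM genes were lower at PD30. ADAM33 stood at 6.61, 5.89 and 6.44 at PD30 and at 14.06, 12.50 and 12.19 in the PD45 control, 2.05-fold lower (limma, adjusted p = 3.31e-05). ADAM23, a surface protein that binds integrins and lacks an active protease site, stood at 15.30, 14.04 and 17.25 at PD30 and at 30.50, 26.41 and 22.91 in the control, 1.71-fold lower (limma, adjusted p = 0.000295). ADAM8, ADAM10 and ADAM19 were not in this table.

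The ADAMTS genes split by member. ADAMTS19 had signals of 2.28, 1.66 and 1.90 at PD30, against 8.10, 8.41 and 11 in the PD45 control, a 4.71-fold lower mean (log2(signal + 1) difference -1.78 ± 0.15, SE, limma adjusted p = 4.82e-06). ADAMTS12, a protease known to cut the cartilage protein COMP, averaged 12.6 ± 0.431 at PD30 and 20.8 ± 1.75 in the control (SD, n = 3 each; limma, adjusted p = 0.000101). Neither gene's PD30 libraries came near the control range. ADAMTS9 stood at 2.60, 2.46 and 2.09 at PD30 and at 0.67, 0.76 and 0.58 in the control, 3.56-fold higher (limma, adjusted p = 3.41e-05). ADAMTS15 stood at 5.22, 4.75 and 4.34 at PD30 and at 1.98, 2.65 and 1.74 in the control, 2.25-fold higher (limma, adjusted p = 0.000272). ADAMTS8 stood at 41.28, 36.00 and 37.69 at PD30 and at 19.96, 25.25 and 26.15 in the control, 1.61-fold higher (limma, adjusted p = 0.000317). Each of ADAMTS9, ADAMTS15 and ADAMTS8 had higher signals in every PD30 library than in any control library. ADAMTS14 was higher as well, at 1.20, 1.14 and 0.87 against 0.67, 0.71 and 0.44 in the control, below the signal minimum of the re-test.

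ADAMTSL5, a microfibril-associated protein, stood at 10.11, 9.62 and 8.83 at PD30 and at 18.43, 22.44 and 15.08 in the PD45 control, 1.96-fold lower (limma, adjusted p = 0.000216). ADAMTS10 and ADAMTSL1 were the members whose calls depended on libraries. ADAMTS10 stood at 1.87, 1.80 and 1.43 at PD30 and at 3.40, 2.93 and 1.95 in the control (limma, adjusted p = 0.0216). Its call was lost without PD45 control replicate 1 or 2, or PD30 replicate 3, at adjusted p-values of 0.0780, 0.0629 and 0.0746, in a range from 0.00260 over 11 alternatives. ADAMTSL1 stood at 4.20, 3.50 and 5.09 at PD30, against 6.54, 6.33 and 5.27 in the control, and its highest PD30 value was close to its lowest control value (limma, adjusted p = 0.0180). Its call was lost without PD45 control replicate 1 or 2, at 0.0535 for both, and without PD30 replicate 2, at 0.0797, in a range from 0.00963 over 12 alternatives.

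**Figure D5:**
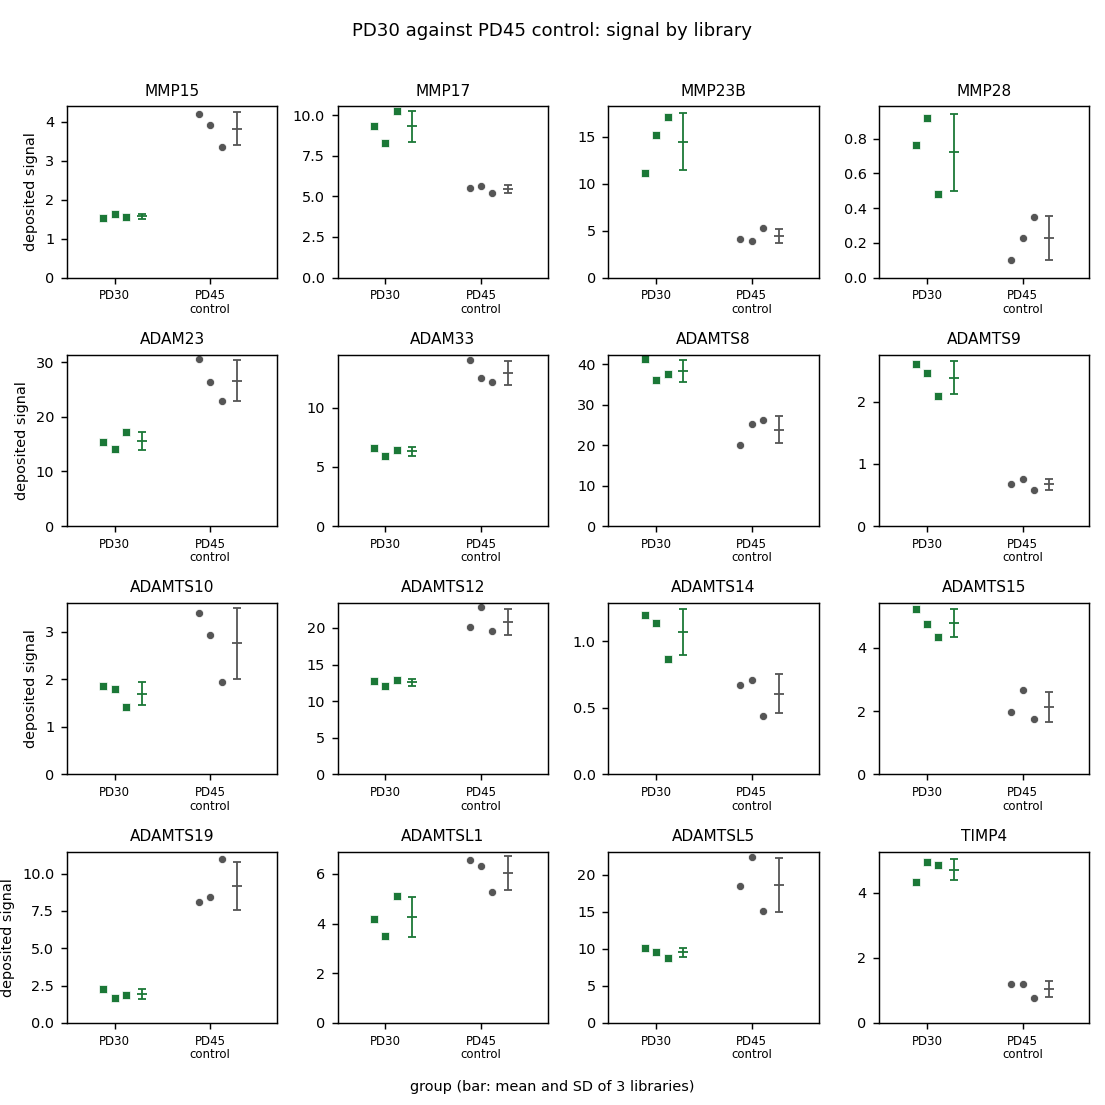
Deposited signal of the 16 members listed for PD30, in each PD30 and PD45 control library (points, in replicate order) with mean and SD beside them (n = 3). For all 16 the groups do not overlap; TIMP4, ADAMTS9 and MMP23B have the highest PD30 to control ratios among members with a signal of at least 1, and ADAMTS19 the lowest.

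Of the 24 members, 12 were in 2 or more tables, all set against the same PD45 control libraries. ADAMTSL1 was the member with values in all 5 groups. Its mean was highest with siSRC4 (9.90) and next in the control (6.05), without overlap between them. GW8510, siSRC2 and PD30 lay below the control at 4.42, 4.36 and 4.26, and these 3 groups overlapped one another in that order. ADAMTS19 ran from 21.8 with siSRC2 through 9.17 in the control and 3.53 with siSRC4 to 1.95 at PD30, with no overlap between neighbours. For ADAMTS8 the order was PD30 (38.3), GW8510 (34.7), control (23.8) and siSRC4 (11.9), and PD30 and GW8510 overlapped.

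Among members in 2 tables, MMP15 had a mean of 8.73 with siSRC4 and 1.57 at PD30, on either side of the control at 3.82. MMP23B was above the control in both tables that list it, at 14.5 at PD30 and 9.46 with siSRC4, and those groups overlapped. ADAMTS14 was likewise above the control at 1.29 with siSRC4 and 1.07 at PD30, with overlap between them. ADAMTS15 stood at 4.77 at PD30 and 3.15 with GW8510, and ADAMTS9 at 2.38 at PD30 and 1.57 with siSRC2, each without overlap and above the control. ADAMTS10 was below the control in both of its tables, at 0.993 with GW8510 and 1.7 at PD30. No test between these groups was run apart from that of the siRNAs.

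Other genes of protease biology were counted over lists, with the 4 genes of largest ratio in each list named. Values are given for the group of the largest ratio. Several named genes were also listed for other groups, PLAT and ATF3 in both directions. How many genes of a list the authors tested is not known, so the shares of all tested genes given beside the counts are background only. Of 34 other matrix and surface proteases and related genes, the heparanase gene HPSE and the receptor gene PLAUR among them, 9 were listed for GW8510, all lower, and all 9 passed the limma re-test, where 4.59% of all tested genes were listed as higher, 7.26% were listed as lower and 95.4% of re-tested genes passed. At PD30 4 were higher and 9 lower, of which 3 and 8 passed (8.24% and 7.07% of all tested genes, with 97.3% of re-tested genes passing). With siSRC2 1 was higher and 1 lower, and all passed (1.38% and 1.26% of all tested genes, with 95.5% of re-tested genes passing). With siSRC4 3 were higher, and all passed (3.91% higher and 4.86% lower of all tested genes, with 93.7% of re-tested genes passing). CPM, a membrane carboxypeptidase, averaged 5.04 ± 1.63 at PD30 and 1.58 ± 0.668 in the PD45 control (SD, n = 3 each; limma, adjusted p = 0.000740). PLAT, the tissue plasminogen activator, averaged 362 ± 17.8 with siSRC2 and 134 ± 3.5 in the control (limma, adjusted p = 1.63e-06). HPSE, a glycosidase that cuts heparan sulfate chains, and TLL2, a tolloid-like protease, were under the signal minimum, at 0.55 and 0.04 at PD30 against 0.0933 and 0.173 in the control.

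Of 36 other protease inhibitors and related proteins, 6 were listed as higher and 12 as lower at PD30, and 5 and 10 of these passed the limma re-test, where 8.24% of all tested genes were listed as higher, 7.07% as lower, and 97.3% of re-tested genes passed. All 6 listed for GW8510 were lower and passed (4.59% higher and 7.26% lower of all tested genes, with 95.4% of re-tested genes passing). With siSRC2 2 were higher and 1 lower, and all passed (1.38% and 1.26% of all tested genes, with 95.5% of re-tested genes passing). With siSRC4 5 were higher and 2 lower, of which 4 and 2 passed (3.91% and 4.86% of all tested genes, with 93.7% of re-tested genes passing). TFPI2, a Kunitz-type inhibitor of matrix-bound proteases, averaged 575 ± 11 at PD30 and 77.3 ± 12.8 in the PD45 control (SD, n = 3 each; limma, adjusted p = 7.53e-08). SLPI, a secreted inhibitor of serine proteases, was listed at 0 in every PD30 library and averaged 1.91 in the control, under the signal minimum of the re-test. The cystatin genes CST4 and CST1 had means of 0.0667 and 8.03 at PD30 and of 3.01 and 58.1 in the control, and as near-identical copies their levels are uncertain.

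Of 32 ligands and receptors that ADAM proteases shed, 2 were higher and 12 lower at PD30, and 2 and 11 of these passed, where 8.24% of all tested genes were listed as higher, 7.07% as lower, and 97.3% of re-tested genes passed. With GW8510 6 were lower, of which 5 passed (7.26% lower of all tested genes, with 95.4% of re-tested genes passing). With siSRC4 2 were higher and 3 lower, and all passed (3.91% and 4.86% of all tested genes, with 93.7% of re-tested genes passing). None was listed for siSRC2, where 2.64% of all tested genes were listed. CX3CL1, a membrane-anchored chemokine, averaged 0.24 ± 0.0781 at PD30 and 3.67 ± 1.05 in the PD45 control (SD, n = 3 each; limma, adjusted p = 8.51e-06). AREG, an EGF receptor ligand, averaged 1.18 ± 0.281 with GW8510 and 8.90 ± 3.33 in the control (limma, adjusted p = 5.52e-05). DLL4, a Notch ligand, averaged 2.53 ± 0.2 with GW8510 and 13 ± 2.56 in the control (limma, adjusted p = 1.35e-05). TGFA, another EGF receptor ligand, was near 0 in both groups, at 0.0367 at PD30 and 0.357 in the control with overlap.

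Of 16 partners of ADAM sheddases, 1 was higher and 1 lower at PD30, 1 lower with siSRC2, 1 higher and 1 lower with siSRC4, and none was listed for GW8510. Of all tested genes 15.3% were listed for PD30, 2.64% for siSRC2, 8.77% for siSRC4 and 11.8% for GW8510. The list's genes were TSPAN15, a tetraspanin that binds ADAM10, at 1.36 ± 0.0404 at PD30 and 0.69 ± 0.0656 in the PD45 control (limma, adjusted p = 0.00164), and TSPAN10, at 5.02 ± 0.252 with siSRC2 and 7.49 ± 1.12 in the control (limma, adjusted p = 0.00530; SD, n = 3 each). RHBDF2, which escorts ADAM17 to the surface, averaged 8.57 ± 1.08 with siSRC4 and 5.12 ± 0.732 in the control (limma, adjusted p = 0.00379), and was also the gene listed as lower at PD30. CD9, a tetraspanin, averaged 195 ± 13.4 with siSRC4 and 315 ± 1.52 in the control (limma, adjusted p = 0.000434).

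Of 33 proteoglycan and matrix substrates, 2 were higher and 4 lower at PD30, of which 2 and 3 passed, 1 was higher and 2 lower with GW8510, 3 were higher with siSRC2, and 2 were higher with siSRC4, of which 1 passed. Of all tested genes the PD30 table lists 15.3%, of which 97.3% of those re-tested passed, and the GW8510 table lists 11.8%, with 95.4% passing. The siSRC2 table lists 2.64%, with 95.5% passing, and the siSRC4 table lists 8.77%, with 93.7% passing. SDC1, a cell-surface heparan sulfate proteoglycan, averaged 30.3 ± 2.14 at PD30 and 11.4 ± 1.79 in the PD45 control (SD, n = 3 each; limma, adjusted p = 6.10e-06). GPC2, a glypican, averaged 1.7 ± 0.282 at PD30 and 0.573 ± 0.153 in the control (limma, adjusted p = 0.000311). HAPLN1 and PRELP were under the signal minimum, HAPLN1 at 0.0133 at PD30 against 0.773 in the control and PRELP at 0.527 with siSRC4 against 0.25 in the control. Of 28 AP-1 and ETS transcription factors and RUNX genes, families known to bind MMP promoters, 4 were higher and 4 lower with GW8510, of which 4 and 3 passed, 4 were lower at PD30, of which 3 passed, 2 were higher and 1 lower with siSRC4, and none was listed for siSRC2, against the same shares of all tested genes. ELK3, an ETS factor, averaged 11.9 ± 0.852 with GW8510 and 31.3 ± 6.97 in the control (limma, adjusted p = 8.86e-05). ETV1 averaged 5.3 ± 1.67 with GW8510 and 11.1 ± 0.872 in the control (limma, adjusted p = 0.000755), and ATF3 14.3 ± 1.21 with siSRC4 and 27.3 ± 2.56 in the control (limma, adjusted p = 0.000468). FOS was under the signal minimum, at 0.157 with GW8510 and 0.923 in the control.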

How the data were processed

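RNA sequencing of 15 libraries was deposited as 4 tables, each setting 1 group against the PD45 control. The submitters' processing notes name DESeq2, edgeR, RSEM, StringTie, HISAT2 and CASAVA, with no role given for any, and GRCm38, a mouse build, while all gene identifiers are human, so no coordinates come from the files. Per the file headers, the authors deposited a normalized signal per library, group mean signals, a fold ratio, a log2 fold change and p-values with adjusted p-values. Tables were matched to groups by library names: the table headed siSRC2 holds siSRC4 libraries, and that headed siSRC holds siSRC2 libraries. The number of genes the authors tested was estimated from the ratio of adjusted p to p in the row with the smallest p.

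Each table was fitted whole with limma 3.58.1 (R 4.3.3, mean-variance trend, two-sided, Benjamini-Hochberg) on log2(signal + 1), for listed genes whose mean signal over the 6 libraries reached 1. The scale understates changes of low genes, and since the authors' selection came first, passing the re-test is no independent evidence. The code of the fit was run on simulated data in which many genes were unchanged, a setting unlike that of these selected genes. Ratios, SD and motifs used Python 3.11.15. Every member is named, with library values for those in several tables, in an siRNA table, or among the 10 largest ratios of a table. Members and lists were chosen with earlier results of these data known. Exons of 11 members overlap a gene on the opposite strand in GENCODE, and strand use in counting is not given in the sources used here. No overlapping gene was in the same table as its member.

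Alternatives were another pseudocount, 2 other signal minimums, no trend, the authors' scale, each library left out, and the replicate number as a block. No main fit was paired, and the replicate number entered as a block in that alternative only. Whether same-numbered libraries varied together was read from the correlation of their deviations over genes. Every pair lay above 0.1 for siSRC4 and the control (0.122, 0.107 and 0.136), by the data and not by a label. That was not so for siSRC2 and the control (0.089, 0.088 and 0.218) or the other comparisons.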

Additional observations from a re-analysis of the deposited data

Results flagged for a closer look

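In the limma test of siSRC2 against siSRC4, 4 of the 5 members passed, where 27.0% of the 100 genes fitted did. Differences were measured as siSRC2 minus siSRC4 on the log2(signal + 1) scale over 3 libraries each. The differences were 2.33 for ADAMTS19, -1.01 for ADAMTSL1, -0.73 for MMP14 and -0.53 for MMP24 (limma, adjusted p = 4.63e-05, 0.000843, 0.00400 and 0.0208). The MMP24 call was lost in 3 of 11 alternatives, with a limma adjusted p of up to 0.0892. ADAMTS19 and ADAMTSL1 lay on opposite sides of the control with the siRNAs, while MMP14 and MMP24 lay above it with both. The authors' listing in opposite directions had already set the siRNAs apart for ADAMTS19 and ADAMTSL1. For them the test is therefore no separate evidence. Residual SRC overlapped between the siRNAs, with 10.6 to 11.61 for siSRC2 and 9.51 to 11.77 for siSRC4.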

How the results depend on the processing

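Direction was kept in all 481 combinations of member, comparison and alternative that were fitted, which leave out MMP28, ADAM8 and ADAMTS14 (under the signal minimum), and 459 stayed on the same side of an adjusted p of 0.05. Of the 22 lost calls, 21 came from leaving out 1 library and 1 from the authors' scale (ADAMTSL1 with GW8510). With a signal minimum of 5, 9 PD30 members passed in place of 14, because fewer genes enter. When each library was left out in turn, the members past the threshold ranged from 12 to 14 for PD30, 4 to 7 for GW8510, 5 to 6 for siSRC2, 9 to 9 for siSRC4 and 3 to 4 between the siRNAs. In the full fits 97.3%, 95.4%, 95.5%, 93.7% and 27.0% of all fitted genes passed, in that order. Shares for the fits with a library left out are not given, so these ranges are not set against all genes. With the replicate number as a block the counts were 14, 7, 6, 9 and 4, as without it, and the block changed no call. Every siSRC4 library correlated best with the control library of its own number, as did every siSRC2 library, and no PD30 or GW8510 library did so. Read depth is unknown, so no detection limit is given for members with low signal such as MMP28, ADAM8 and ADAMTS14.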
